A study of Mus musculus with 2 samples.

Results

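Trim24 and its 3 relatives of the transcriptional intermediary factor 1 (TIF1) family, Trim28, Trim33 and Trim66, were followed in the 2 RNA-sequencing libraries of the study. The 4 genes were chosen by name and by family, and all 4 were among the 15623 genes listed in 1 or both libraries. Both came from wild-type C57BL/6 mice aged 6 to 8 weeks, whose peritoneal macrophages had been elicited with an irritant. The irritant was 4% thioglycolate, given 4 to 5 days earlier, and adherent cells were starved in medium with 0.5% FBS. The cells of 1 library were left nontreated (NT), and those of the other were stimulated for 6 h with IL-4, the Th2 cytokine that drives M2 polarization. No other allele or agent is named for either group, and the number of mice behind each library is not given in the sources used here.

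TIF1 proteins typically carry the tripartite motif of RING finger, B-boxes and coiled coil at one end. At the other end is a PHD finger with a bromodomain, which in some members read histone tails. They act mainly on transcription. Trim24 is a coregulator of nuclear receptors such as the retinoic acid receptors and an E3 ubiquitin ligase, and the study examined it as a CBP-associated protein in the acetylation of Stat6. Trim28, also called KAP1, is the corepressor that KRAB zinc finger proteins bring to DNA, where it gathers heterochromatin proteins and a histone methyltransferase. Trim33 works with the Smad proteins downstream of TGF-β. Trim66 is known mainly from germ cells of the testis.

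Trim24 (gene 21848) lies on the plus strand of chromosome 6, from 37870811 to 37968445 in GRCm38. Trim33 (gene 94093) lies on the plus strand of chromosome 3, from 103279293 to 103358770. Trim28 (gene 21849) and Trim66 (gene 330627) share chromosome 7, the former on the plus strand from 13024152 to 13031032 and the latter on the minus strand from 109449001 to 109516759. The promoter of Trim24 is shown because Trim24 was the member with the lowest ratio of IL-4 over NT and because Stat6, the factor that IL-4 activates, recognizes paired TTC and GAA letters. Those of Trim28, whose ratio was nearest to 0, and of Trim66, which was close to silent, are shown for comparison. Each is the 250 bases before the start site, 5′ to 3′ on the strand of the gene, from RefSeq on GRCm38.p6. They lie at chr6:37870561-37870810 (plus strand), chr7:13023902-13024151 (plus strand) and chr7:109508135-109508384 (minus strand). The Trim66 window precedes a start inside the gene as annotated, not its outermost start. Capitals mark matches to the motifs searched, on either strand.
Trim24: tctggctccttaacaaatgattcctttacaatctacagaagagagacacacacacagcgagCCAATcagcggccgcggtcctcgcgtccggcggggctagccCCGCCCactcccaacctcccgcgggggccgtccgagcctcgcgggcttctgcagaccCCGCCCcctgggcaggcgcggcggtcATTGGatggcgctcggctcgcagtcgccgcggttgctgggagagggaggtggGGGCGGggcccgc
Trim28: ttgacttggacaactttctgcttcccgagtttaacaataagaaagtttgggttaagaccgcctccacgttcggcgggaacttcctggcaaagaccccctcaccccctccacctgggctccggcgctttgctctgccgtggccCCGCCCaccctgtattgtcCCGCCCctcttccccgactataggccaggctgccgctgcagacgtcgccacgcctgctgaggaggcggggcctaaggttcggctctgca
Trim66: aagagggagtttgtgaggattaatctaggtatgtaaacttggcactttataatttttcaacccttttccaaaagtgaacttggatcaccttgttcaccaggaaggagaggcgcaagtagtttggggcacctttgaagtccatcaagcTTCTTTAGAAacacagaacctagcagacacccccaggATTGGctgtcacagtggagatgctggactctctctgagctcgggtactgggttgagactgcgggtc

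The motifs were TTCNNNGAA and TTCNNNNGAA, the spacings of the paired TTC and GAA letters, the CCAAT box (CCAAT) and the GC box (GGGCGG). Windows of 250 bases before to 50 bases after the start were searched on both strands, and no match of one motif overlapped a match of another in the windows of the TIF1 genes. A window matched 3 of the 4 members, and Trim33 had none. The Trim24 window held 2 CCAAT boxes, which began 189 and 65 bases before the start, and 4 GC boxes. Of the GC boxes, 3 lie in the stretch printed above, and they began 148, 91 and 13 bases before the start. The Trim28 window held 2 GC boxes and no CCAAT box. The Trim66 window held 1 CCAAT box and 1 match to the wider Stat6 spacing, 103 bases before the start. Neither spacing of the Stat6 letters was found in the Trim24 window above, in a further Trim24 window at chr6:37900237-37900486, or in the Trim28 window. In the human TRIM24 promoter the study reports a conserved motif of the wider spacing, farther upstream than these windows reach. It also reports, by chromatin immunoprecipitation, that Stat6 bound that region. Bases farther upstream were not searched here, and nothing follows from these windows about Stat6 at the genes. Of all 32851 windows, 8.30% held TTCNNNGAA, 6.95% held TTCNNNNGAA, 37.4% held a CCAAT box and 35.7% a GC box. These matches describe letters and not bound sites. The 250 bases were 69.6% G and C in Trim24, 62.0% in Trim28 and 47.2% in Trim66, against a median of 52.4% over all windows.

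The NT library held 11035641 expected counts and the IL-4 library 11250099. A gene with at most 3 counts in each library was taken as not detected here. In the NT and IL-4 libraries 3 counts stood for 0.272 and 0.267 CPM, counts set to one library size. Each group held 1 library. No difference below was therefore checked against the spread between replicates, and no p-value is given. Intervals are exact 95% intervals that cover counting error only, and they treat reads as independent molecules, which reads without molecular identifiers are not. Although a label gives bone marrow as the tissue, all 8 macrophage markers examined were detected, with 17095 CPM in sum in NT cells and 17408 CPM in IL-4-stimulated cells, most of it Lyz2 and Cd68. They ranged from Fcgr1, with 189 and 147 counts, to Lyz2, with 129463 and 126458. Of the 8, Csf1r was at a log2 ratio of 0.90 and Cd14 at -1.07. Adgre1, a macrophage surface marker, had 2470 and 3377 counts. The marker lists of B cells, T cells, neutrophils, eosinophils, mast cells, mesothelial cells and erythroid cells ran from 1.87 to 10.3 CPM in sum, and Ly6g, Mpo and Epx were not listed. Each of these 7 sums was lower in the IL-4 library, the direction of Trim24, but no interval was formed for them. They rest on few counts, from 36 and 21 for neutrophils to 114 and 99 for mesothelial cells. Siglecf, of eosinophils, had 53 and 27 counts, a log2 ratio of -0.99 (-1.73 to -0.31). S100a8, of neutrophils, had 35 and 21 counts, and its interval (-1.62 to 0.06) included 0. Of the mesothelial genes, Msln had 12 and 2 counts and Upk3b 12 and 7. The better-counted Wt1 had 68 and 65, and Krt19 had 22 and 25. The adipocyte list was 372 CPM in NT cells, nearly all of it Fabp4, which macrophages also express, and 456 CPM after IL-4, where Adipoq had 139 counts against 0 in NT cells and Plin1 and Cidec were not listed. The part of these cells in the TIF1 results was not tested.

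The TIF1 members differed widely in level, and their order was the same in both libraries. FPKM, which scales fragments for gene length and library depth, sets genes side by side per length. Trim28 was the most abundant, with 28.42 FPKM (95% interval 26.7 to 30.2) in NT cells and 26.32 FPKM (24.7 to 28.0) after IL-4. Trim33 followed with 5.45 FPKM (5.00 to 5.93) and 4.29 FPKM (3.90 to 4.71). Trim24 came after it, with 2.55 FPKM (2.19 to 2.96) in NT cells and 1.48 FPKM (1.21 to 1.79) after IL-4. Trim66 stood at 0.01 and 0.02 FPKM. The intervals of neighbours in this order did not overlap within either library.

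**Figure D1:**
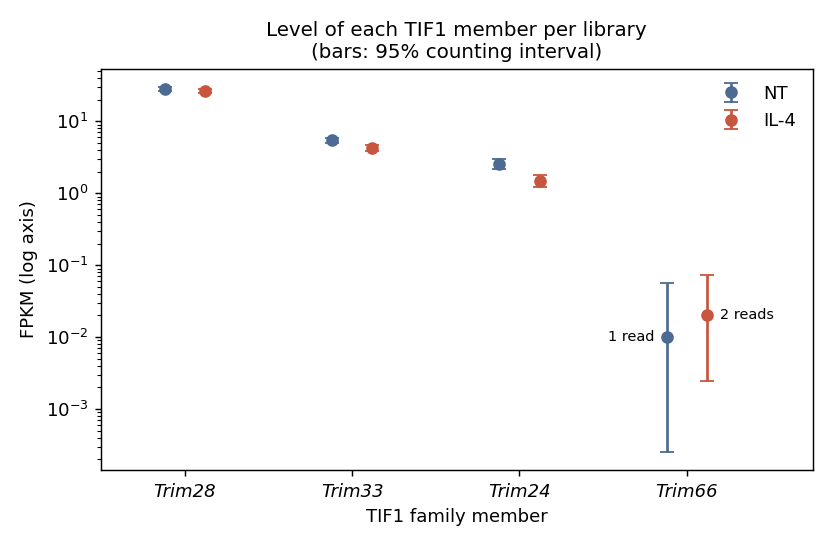
Level of the 4 TIF1 members in FPKM (log axis) in the NT and IL-4 libraries, 1 library each, with 95% counting intervals as bars. Trim28 is highest at 28.42 and 26.32 FPKM, Trim24 stands at 2.55 and 1.48 FPKM, and Trim66 rests on 1 and 2 reads.

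Against all 12516 genes with at least 10 reads in the 2 libraries together, Trim28 was at or above 81.1% of the genes by FPKM in NT cells and 78.8% after IL-4. Trim33 was at or above 42.1% and 38.9%, and Trim24 at or above 28.3% and 22.0%. Trim28 alone made up 78.0% of the FPKM of the family in NT cells and 82.0% after IL-4. The share of Trim33 was 15.0% in NT cells and 13.4% after IL-4, and that of Trim24 was 7.0% and 4.61%. Trim28 was 11.1 times as abundant as Trim24 by FPKM in NT cells and 17.8 times as abundant in IL-4-stimulated cells. In FPKM, the whole family summed to 36.43 in NT cells and 32.11 in IL-4-stimulated cells.

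The study looked among IL-4-regulated genes for proteins that could act on Stat6 acetylation. It took Trim24 from genes that its RNA sequencing had called up or down after IL-4, by log2 ratio among other limits. A ratio far from 0 was thus a condition of that choice. By QPCR and immunoblot, the study also reports lower Trim24 after IL-4 in mouse and human macrophages. It reports that loss of Stat6 abolished this decrease in macrophages. Those assays were not examined here. In these libraries, Trim24 was the TIF1 member with the log2 ratio farthest from 0. In counts the difference was larger for Trim33, and in FPKM for Trim28. Trim24 had 174.92 expected counts without IL-4 and 103 with it. Scaled to the library totals, these were 15.9 CPM (13.6 to 18.4) and 9.16 CPM (7.47 to 11.1), and the intervals did not overlap. The level after IL-4 was 0.579 of that in NT cells, with an interval from 0.448 to 0.741. On the log2 scale this was -0.79, with an interval from -1.16 to -0.43. Fewer cells that express a gene and less RNA per cell cannot be told apart in such bulk libraries.

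Trim33, the Smad partner, had 540 counts in NT cells and 433 in IL-4-stimulated cells. Its log2 ratio was -0.35 (-0.53 to -0.16), so that it was also lower after IL-4 by more than counting error. Trim28, the KRAB corepressor, had 1028 counts in NT cells and 971 after IL-4. Its log2 ratio of -0.11 had an interval from -0.24 to 0.02, which included 0. With about 1000 counts in each library, Trim28 was the most precisely measured of the family. A decrease of Trim28 beyond -0.24 on the log2 scale lay outside counting error. Trim66 had 1 count in NT cells and 2 after IL-4. With at most 3 counts in each library Trim66 was taken as not detected, so no ratio was formed. At this depth its level could have been up to 0.505 CPM in NT cells and 0.642 CPM after IL-4.

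At a log2 ratio of -0.75 or below, the size the study used for this comparison, 1 of the 3 members with at least 10 reads was lower after IL-4, namely Trim24. Of all 12516 genes with that many reads, 10.2% passed the same limit, and 5.99% passed 0.75 in the other direction. None of the 3 TIF1 members was higher by that size. The median log2 ratio was -0.35 over the 3 members and -0.03 over all 12516 genes. The study had taken Trim24 from genes past its limit, and the members were named with these results known. For both reasons, 1 of 3 against 10.2% is no more than a description. The interval of Trim24 spanned the limit of -0.75. Had animals varied with a coefficient of variation of 0.2, it would also include 0 (-1.66 to 0.08).

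**Figure D2:**
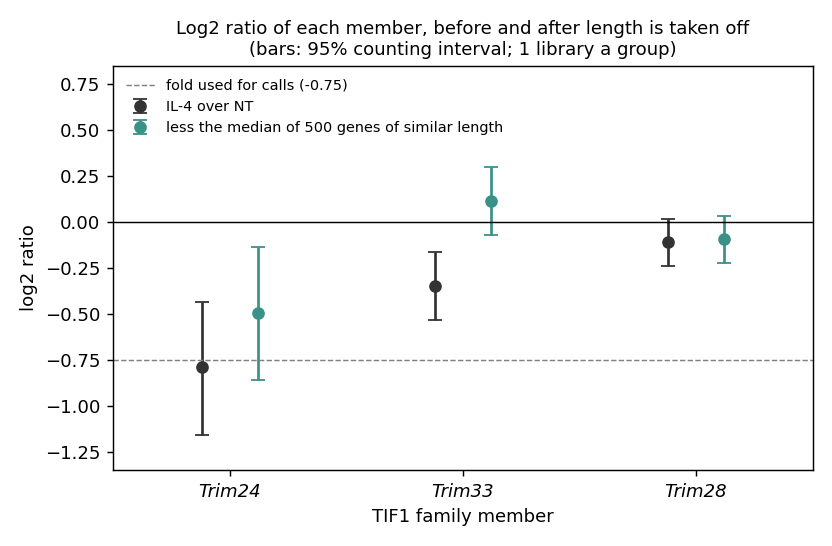
Log2 ratio of IL-4 over NT for the 3 TIF1 members with enough reads, as measured (dark) and less the median of the 500 genes nearest in length (green), with 95% counting intervals as bars. Trim24 is lowest at -0.79 and moves to -0.49, Trim33 moves from -0.35 to 0.12, and Trim28 stays close to 0.

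The members were also compared with each other inside each library, which needs no scaling of one library to the other. For every 100 counts of Trim28 there were 17.0 counts of Trim24 in NT cells and 10.6 after IL-4. Relative to Trim28, Trim24 was therefore lower by -0.68 on the log2 scale, with an interval from -1.07 to -0.30. For every 100 counts of Trim33 there were 32.4 counts of Trim24 in NT cells and 23.8 after IL-4, a difference of -0.45 (-0.86 to -0.04). Trim33 relative to Trim28 gave -0.24 (-0.46 to -0.01). In each of the 3 pairs compared the interval left out 0, although only narrowly in the last 2, and the intervals were not widened for the number of pairs.

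The members are of very different length, and length moved with the ratio across these libraries. The listed length, which RSEM weights over the transcripts of a gene, was 3255 bases for Trim28, 6151.8 and 6089 bases for Trim24 in the NT and IL-4 libraries, 8856 and 8850 bases for Trim33, and 9129 bases for Trim66. Trim28 was thus near the middle of the genes, at or above 59.1% of them by length. Trim24 was at or above 90.2% of the genes and Trim33 at or above 97.4%. Each member was set beside the 500 genes nearest to it in length among the 8463 genes with at least 200 reads.

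Genes as long as Trim24 were mostly lower after IL-4. The 500 genes of 5548 to 6754 bases around Trim24 had a median log2 ratio of -0.30, with quartiles of -0.55 and -0.05, and 13.8% of them passed the limit of -0.75. Trim24 lay below the lower quartile, and 61 of the 500 (12.2%) had a ratio at or below its own. With the median taken off, Trim24 was at -0.49 with an interval from -0.86 to -0.14. The shifted interval, which covers counting error only, still left out 0, but the value no longer passed the limit of -0.75. Over the other neighbourhoods tried, the shifted value ran from -0.54 with the 200 nearest genes to -0.42 with the 200 genes nearest in both length and level.

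Trim33 was not lower than other genes of its length. The 500 genes of 6957 to 11207 bases around it had a median of -0.46, and 21.6% of them passed -0.75. Trim33 ranked at or above 61.4% of them by ratio. Less their median, Trim33 was at 0.12 with an interval from -0.07 to 0.30, which included 0. The sign of the Trim33 difference therefore turned when length was taken into account.

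Trim28 was close to its neighbours as well. The 500 genes of 3104 to 3415 bases had a median of -0.02, and 4.4% of them passed -0.75. Trim28 less that median was at -0.09 (-0.22 to 0.04), and 37.6% of the genes were at or below it. With the length medians taken off both genes, Trim24 relative to Trim28 was at -0.40 (-0.79 to -0.02) and relative to Trim33 at -0.61 (-1.02 to -0.20). Trim33 relative to Trim28 was then at 0.21 (-0.02 to 0.43).

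**Figure D3:**
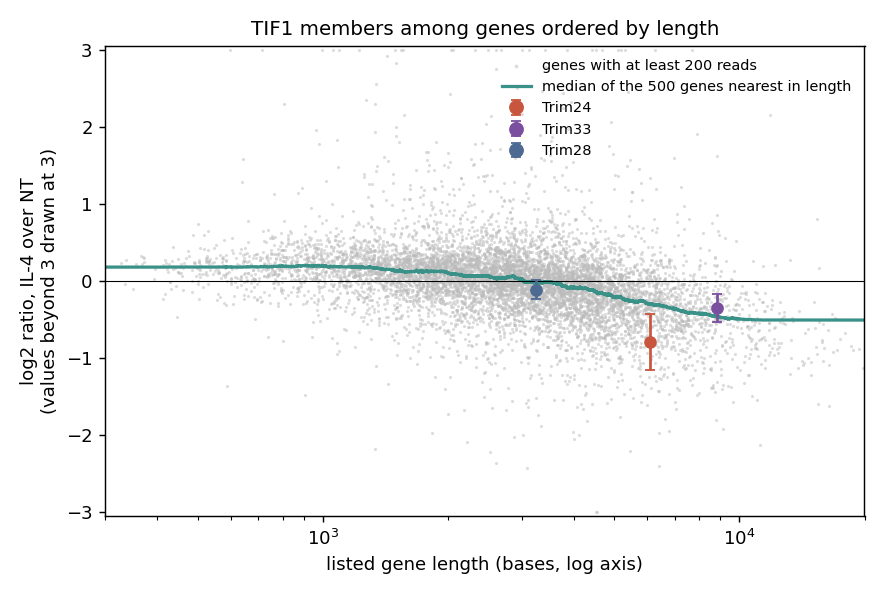
Log2 ratio of IL-4 over NT (y axis) against listed length in bases (log axis) for 8463 genes with at least 200 reads, with the running median of the 500 genes nearest in length as a line and the TIF1 members with 95% counting intervals. The line falls from above 0 among short genes to below 0 among long ones, and Trim24 lies below it while Trim33 and Trim28 lie near it.

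The levels of the members against genes of their own length showed the same order of abundance. Only genes with at least 200 reads entered this comparison, which leaves out poorly expressed ones. Trim24 was among the least abundant, with an FPKM at or above that of 9.20% of its neighbours in NT cells and 4.00% after IL-4. Its 174.92 and 103 counts compare with medians of 572 and 483 counts among those genes. Trim33 was at or above 39.4% and 43.2% of its neighbours by FPKM, and Trim28 at or above 78.4% and 77.0%. For Trim66, without a minimum of reads, the 500 listed genes nearest in length had medians of 286.5 counts in NT cells and 209.8 after IL-4. Of these genes, 11.4% had at most 3 counts in each library, as Trim66 did.

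The length listed for Trim24 was lower after IL-4, by a difference of -62.8 bases or -1.02%. Of 12463 genes with at least 10 reads that were listed in both libraries, 26.0% differed in listed length at all, and 8.47% differed by at least as much as Trim24. The length of Trim33 differed by -0.08%, and those of Trim28 and Trim66 did not differ. In GENCODE M21, 3 transcripts are paired with RefSeq transcripts of Trim24. These counterparts have 19 exons each and coding lengths of 3153, 3051 and 2943 bases. A weighted length falls when shorter transcripts take a larger share, but no values per transcript were used here. All 3 GENCODE counterparts, at most 4042 bases long, were shorter than the length listed for Trim24, so that the models behind the tables were longer. By the same pairing Trim28 has 1 transcript with 17 exons and 2502 coding bases, and Trim33 has 2, with 3420 and 3369 coding bases. The expected counts of Trim28, Trim33 and Trim66 were whole numbers, and only that of Trim24 in the NT library was not. Of all genes with at least 10 reads, 75.2% had whole counts in both libraries. An expected count that is not whole can include reads that were divided with another gene.

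The genes most like each member were those with the nearest pair of log2(FPKM + 0.1) values over the 2 libraries. For Trim24 these were Gm15645, a pseudogene with 2.59 and 1.51 FPKM, Cep131 with 2.5 and 1.52 FPKM, and Ctif with 2.44 and 1.46 FPKM. Of the 3, Ctif was also of similar length, at 6192 bases. For Trim33 they were Tbcel, Trio and Ccdc163, with 5.49, 5.56 and 5.36 FPKM in NT cells and 4.32, 4.24 and 4.38 FPKM after IL-4. For Trim28 they were Dhx9, Dync1li1 and Qpct, with 28.87 to 28.99 FPKM in NT cells and 26.08 to 26.42 FPKM after IL-4. With 2 libraries, many genes share such a pair of levels.

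Of 13 silencing partners of Trim28, all with at least 10 reads, 1 was lower by the limit and 0 were higher, close to the 10.2% and 5.99% of all genes. Their median log2 ratio was -0.01. The gene past the limit was Chd3, a helicase of the NuRD complex, which had 2189 counts in NT cells and 1209.02 after IL-4, a log2 ratio of -0.88 (-0.99 to -0.78). Less the median of genes of its length, Chd3 was at -0.50 and inside the limit. Its paralog Chd4 lay on the other side, with 6749 and 8970 counts and a log2 ratio of 0.38 (0.34 to 0.43). Cbx1 and Cbx3, which encode heterochromatin protein 1 beta and gamma, had log2 ratios of 0.51 (0.27 to 0.76) and 0.45 (0.27 to 0.63). Cbx5, which encodes the alpha form, was at -0.21 (-0.48 to 0.05), which turned to 0.25 less the median of genes of its length. Setdb1, the histone methyltransferase that Trim28 recruits, had 785 and 685 counts, a log2 ratio of -0.22 (-0.37 to -0.07). By length, Setdb1 moved to -0.07 and Chd4 to 0.70.

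Of 7 KRAB zinc finger genes, 5 had at least 10 reads, and 0 of these passed the limit in either direction, where 10.2% of all genes were lower and 5.99% higher. With so few genes, 0 calls is near that share. Their median log2 ratio was 0.19. Zfp809, which silences retroviral sequences, had 129 and 81 counts, a log2 ratio of -0.70 (-1.12 to -0.29). Less the median of genes of its length, Zfp809 was at -0.82 and past the limit. Zfp932 had 191.2 and 222.13 counts, a log2 ratio of 0.19 (-0.10 to 0.48). Zfp57 had 7 and 9 counts, and Zfp819 was not listed.

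Of 9 nuclear receptors that Trim24 is known to bind or coregulate, 7 had at least 10 reads. Among these, 1 was higher by the limit and 0 were lower, against 5.99% and 10.2% of all genes. The median log2 ratio was -0.20, and it turned to 0.10 once the length median was taken off each gene. The receptor past the limit was Rarb, the retinoic acid receptor beta, itself a well-known retinoic acid target, with 44 counts in NT cells and 102 after IL-4. Its log2 ratio was 1.18 (0.66 to 1.73), and 1.14 less the median of genes of its length. Rara, the alpha form, had 242.76 and 179.26 counts, a log2 ratio of -0.46 (-0.76 to -0.18). Rxrb was at -0.48 (-0.68 to -0.30) and Rarg at -0.29 (-0.52 to -0.07). Vdr, with 12 and 19 counts, was at 0.61 (-0.48 to 1.81). Rxra, the most abundant of these receptors, had 1577 counts in each library.

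Of 6 retinoid response genes, 2 had at least 10 reads. Dhrs3, a retinaldehyde reductase that retinoic acid induces, was the 1 higher by the limit, where 5.99% of all genes were as high. It had 5434 counts in NT cells and 10490 after IL-4, a log2 ratio of 0.92 (0.87 to 0.97). Stra6, a retinol transporter, had 7 counts in each library. Cyp26a1, Cyp26b1 and Crabp2 were not listed. Most of this list was thus too scarce to be measured.

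Trim24 is also known as a ligase of p53, encoded by Trp53, and 4 genes of that pathway were examined. Trp53 had 602 and 659 counts, a log2 ratio of 0.10 (-0.06 to 0.26). Cdkn1a, a p53 target that encodes p21, was the 1 gene of the 4 past the limit, where 5.99% of all genes were as high. It had 465 and 900 counts and a log2 ratio of 0.92 (0.76 to 1.09). Mdm2 and Mdm4, the other regulators of p53, were at -0.34 (-0.46 to -0.23) and -0.39 (-0.58 to -0.21). Less the median of genes of its length, Mdm4 was at -0.01, while Mdm2 stayed at -0.33. The median of the 4 genes was -0.12.

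Genes of Smad signalling, in which Trim33 takes part, were examined next. Of 13 genes, 12 had at least 10 reads, and 4 of these passed the limit downwards and 0 upwards, against 10.2% and 5.99% of all genes. Their median log2 ratio was -0.46. Smad3, a receptor-activated Smad, had 207 counts in NT cells and 81 after IL-4, a log2 ratio of -1.38 (-1.77 to -1.0). Tgfbr1, a TGF-β receptor chain, had 1343 and 700 counts, a log2 ratio of -0.97 (-1.10 to -0.83). Skil, a Smad corepressor, was at -0.79 (-1.03 to -0.56) and Acvr1b, an activin receptor, at -0.76 (-1.03 to -0.50). Acvr1b was inside the limit with TMM and with median-of-ratios scaling, which left 3 of the 12. Tgfbr2, the other TGF-β receptor chain, was at -0.61 and Smad2 at 0.31, both inside it. Smad4 had 559 and 540 counts, a log2 ratio of -0.08 (-0.25 to 0.10).

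These counts moved with length as well. Once the length median was taken off, 1 of the 12 Smad genes, Smad3 at -1.17, was past the limit downwards and 1, Smad2 at 0.76, was past it upwards. By that measure 8.33% of all genes were lower and 6.02% were higher, and the median of the 12 genes was -0.22.

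Of 6 partners of Trim33 in blood cells, 5 had at least 10 reads, and 0 passed the limit in either direction, near the 10.2% lower and 5.99% higher over all genes. Their median log2 ratio was -0.04. Spi1, which encodes PU.1, the factor that sets macrophage identity, had 3705 and 3783 counts, a log2 ratio of 0.00 (-0.06 to 0.07). Cdk9, the elongation kinase, had 1353.02 and 1337.09 counts and was at -0.04 (-0.16 to 0.07). Ifnb1, a gene that Trim33 represses in macrophages, was not listed in either library.

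The acetyltransferase genes that stand beside Trim24 in the study were examined with Stat6. Crebbp, which encodes CBP, had 6.68 FPKM in NT cells and 3.64 after IL-4. Ep300, its paralog, had 20.00 and 12.75 FPKM, and Stat6 had 69.68 and 56.02 FPKM. Stat6 was thus far above Trim24 in both libraries. Crebbp was the 1 of these 3 genes past the limit, at -0.87, against 10.2% of all genes. Once the median of genes of their length was taken off, Crebbp was at -0.46. Ep300 moved from -0.65 to -0.19 and Stat6 from -0.31 to -0.25, and 0 of the 3 passed the limit. By that measure 8.33% of all genes were lower and 6.02% higher, so with 3 genes 0 calls is near those shares.

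**Figure D4:**
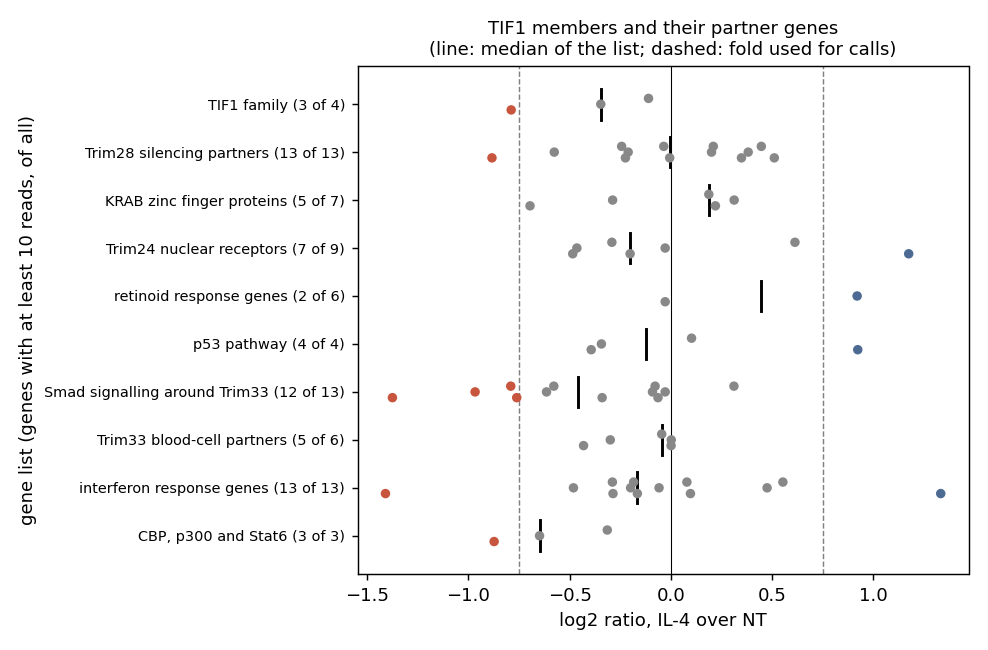
Log2 ratio of IL-4 over NT for each gene with at least 10 reads in the TIF1 family and in 9 lists of partner genes, with the median of each list as a vertical line and the limits of -0.75 and 0.75 dashed. Points past the limit are coloured, as for Trim24 at -0.79, Smad3 at -1.38, Rarb at 1.18 and Dhrs3 at 0.92.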

How the data were processed

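RNA from the NT and IL-4 macrophages was purified on columns and sequenced by BGI. As the study's methods state, Bowtie alignments to GRCm38/mm10 were quantified by RSEM (versions not given in the sources used here). The deposited tables hold expected counts, which are estimated and not scaled, FPKM scaled by the authors for length and depth, and the length of each gene. The lowest FPKM listed was 0.01, and a gene absent from a table was set to 0. Of 15623 gene numbers, 15587 matched a symbol in RefSeq (GRCm38.p6).

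The members and lists were chosen with earlier results of these data known. The log2 ratio was computed for every gene from counts scaled to the library totals (CPM) with 0.5 count added. Its interval was the exact Clopper-Pearson 95% interval of the IL-4 share of the rounded counts. Intervals of a level were exact Poisson intervals, and those between members came from conditional odds ratios. Among genes with at least 10 reads, those with a log2 ratio at or beyond 0.75 in either direction were called. Partner genes were named where they passed that limit or as examples of a list, and 3 genes of like level were named for each member. The procedure was tested on simulated data. Partner lists were assembled from general knowledge, and some of their genes are not reported here. Python 3.11.15, scipy 1.17.1, R 4.3.3, edgeR 4.0.16 and DESeq2 1.42.0 were used, the last 2 for scaling only. Alternatives were other scalings, FPKM with 0.1 or 1 added, other limits, filters and neighbourhoods, and assumed variation between animals.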

Additional observations from a re-analysis of the deposited data

How the results depend on the processing

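No paired analysis was possible because only 1 library stands in either group, and no replicate could be left out. Trim66 was given no ratio under any setting. The log2 ratios of Trim24, Trim28 and Trim33 stayed inside their counting intervals under the 3 other scalings and with FPKM. Trim24 ran from -0.81, with the 100 most abundant genes left out of the totals, to -0.52 with FPKM plus 1. It was -0.75 with TMM scaling, past the limit, and -0.75 with FPKM plus 0.1, just inside it before rounding. An added constant understates the ratio of a gene of low FPKM. The 0 members at a log2 ratio of -1 or below, and the 0 after the length median was taken off, compare with 1 at the limit of -0.75 and 1 at 1.5-fold.

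If animals varied with a coefficient of 0.2 or 0.4, the upper bound of the Trim24 interval was 0.085 or 0.85, and with 0.1, 0.2 or 0.4 that of Trim33 was 0.093, 0.47 or 1.26, all above 0. The Trim24 bound stayed below 0 with 0.1 (-0.26), but only before length was taken off. The median of genes as long as Trim24, -0.30, lies below that bound, so less that median the bound would be above 0.

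The background of 1275 genes lower and 750 higher became 2598 and 1693 with no filter, 493 and 303 with at least 200 reads, and 400 and 388 with FPKM plus 1, an alternative chosen after seeing the data. Of 64 partner genes, 11 were past the limit in either direction, and their alternatives were also chosen after seeing the data. Over all genes 10.2% were lower and 5.99% higher, so 11 of 64 is near the background. Acvr1b lost that place with TMM and median-of-ratios scaling, Acvr1b, Skil, Mx1 and Crebbp with FPKM plus 1, and 5 genes with the length median taken off, where 2 others gained it. None of the 11 reversed. Depth left Trim66 without a ratio.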

Other observations

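Interferon response genes, some of which are known to be restrained by Trim24 and other TIF1 proteins, were examined as a further list. All 13 had at least 10 reads, and 1 was higher by the limit, 1 was lower, and 11 lay between, near the 5.99% and 10.2% of all genes. Irf1, an interferon-induced transcription factor, had 526 counts in NT cells and 1352.96 after IL-4, a log2 ratio of 1.33 (1.19 to 1.48). Mx1, an antiviral GTPase, had 17.1 and 6.25 counts, a log2 ratio of -1.41 (-3.16 to -0.12). Stat2 and Oas1a were at 0.48 (0.30 to 0.65) and 0.55 (0.42 to 0.70). Ifit1, Ifit2, Ifit3 and Isg15 had between 24.71 and 56 counts in either library, and their intervals included 0. The median of the 13 genes was -0.17, against -0.03 over all genes.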
